A study of Mus musculus with 44 samples.

Results

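The 10 genes described here encode parts of the epidermal growth factor (EGF) receptor system, and they were chosen by name from 54532 genes in the count tables. They are the feedback inhibitors Errfi1, Spry2 and Spry4, the ligands Hbegf, Ereg, Areg and Tgfa, and the receptors Egfr, Erbb2 and Erbb3. Their levels were followed in 16 RNA-seq libraries of L929, a fibroblast line from mouse connective tissue, and in 28 libraries of primary mouse cortical neurons, with 4 libraries in each of 11 groups. Of the 10 genes, 8 passed the filter on low counts in L929, which removed Egfr and Tgfa, and 8 passed it in neurons, which removed Areg and Ereg.

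The L929 groups were a control and cells with isoform 2 of FRMD5, a FERM-domain protein, as the full-length form, with a combined deletion of the intrinsically disordered region (delta-IDR), or without the coiled coil and the low-complexity domains (delta-CC-LCD). The series describes its L929 cells as treated for 4 hours with dexamethasone (DEX), a synthetic glucocorticoid, but the sample labels do not say whether the control group received it. A difference between a construct and the control can therefore not be told apart from one made by DEX. The library names of the control and full-length groups share a tag, as F517C and F517D, and its meaning is not stated. Whether the control cells carried a construct is therefore open, and "with a construct" below names groups by their labels only. The neurons received a control peptide at 100 µM without DEX, the same peptide with DEX, or an interfering peptide at 1, 3, 10, 30 or 100 µM with DEX. A treatment time of 4 hours is given for every neuron group. The sequence of neither peptide is used here. Whether lines were clones, how many animals gave neurons and whether replicates were separate cultures is not stated, so p-values measure the spread between libraries, which may be technical.

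EGF receptor ligands are made as membrane-anchored precursors, are shed by proteases and bind receptor tyrosine kinases of the ErbB family, which signal as dimers through RAS and the ERK kinases. Errfi1 (MIG6) binds the active kinase domain and blocks it, while Sprouty proteins dampen the RAS–ERK branch, and several of these inhibitors are themselves transcribed in response to the pathway. ERBB2 binds no ligand of its own and acts as a dimer partner, and ERBB3, with a weak kinase, relies on its partners. Errfi1 is also known as a gene that glucocorticoids switch on in several tissues.

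Total counts ran from 17211270 to 18313407 per library in L929 and from 13685236 to 17083701 in neurons. Levels are given as counts per 1e+06 counts (CPM) after TMM scaling, and changes as log2 differences ± standard error from edgeR's quasi-likelihood test over all genes of a table. A gene was called changed at a Benjamini-Hochberg adjusted p below 0.05. Fibroblast markers summed to between 9928 and 12975 CPM in L929, where the 9 neuron markers summed to at most 1.67 CPM, with means of 0.208 in control, 0.810 with full-length, 0.894 with delta-IDR and 1.46 with delta-CC-LCD. Of these 9, Snap25, Syt1 and Slc17a6 had a count of 0 in all 16 libraries, and Rbfox3, which reached 1.08 CPM, in none. Neuron markers summed to between 2823 and 3335 CPM in the cortical cultures, which also held RNA of astrocyte markers, 273 to 351 CPM, and of neural progenitor markers, 1070 to 1283 CPM. Counts of Frmd5 itself came to 15, 9, 20 and 5 over the control, full-length, delta-IDR and delta-CC-LCD groups, so they do not show which L929 libraries carry a construct. Within groups, 1 with 3 and 2 with 4 was the most alike split into pairs in 10 of 11 groups, by a summed chi-square of counts. The exception was L929 delta-CC-LCD, where libraries 1 and 3 were the least alike pair. In 2 other L929 groups a pair was not the closest by itself. Chi-square per degree of freedom was 5.68 for delta-IDR libraries 2 and 4 against 4.60 for 2 and 3. It was 3.99 for control libraries 1 and 3 against 3.69 for 3 and 4. The calls below are therefore also given, where it matters, with libraries 1 and 3 and libraries 2 and 4 each summed to a single library (pair sums). For comparisons with delta-CC-LCD, this split is not one that its own libraries showed.

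The L929 cells and the neurons held different parts of the system. In L929 the receptor RNA was mostly Erbb2, at a mean of 9.45 CPM per kilobase of transcript over the 16 libraries, against 0.178 for Erbb3 and 0.0146 for Egfr. The neurons had Erbb2 at 2.52, Egfr at 0.712 and Erbb3 at 0.103 CPM per kilobase. Among the ligands, L929 held Hbegf at 7.27 and Ereg at 7.13 CPM per kilobase, and the neurons held Hbegf at 4.28 and Tgfa at 1.86. Ereg and Areg came to 7 and 16 counts over all 28 neuron libraries, with 24 and 18 libraries at 0. Egfr came to 46 counts and Tgfa to 28 over the 16 L929 libraries. The 2 tables were scaled separately, so these levels describe each culture and were not tested against each other.

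Errfi1 rose in L929 with each of the constructs. It spans chr4:150853919-150868892 of mm10 in the deposited tables and was the most abundant of the 10 genes per kilobase there, at 480 CPM on average, while in neurons it stood at 8.98 beside 8.43 for Spry2. Its level was 165, 183, 169 and 175 CPM in the control libraries and 2456, 2505, 2435 and 2491 CPM with full-length FRMD5. It was 2089, 1988, 2094 and 1983 CPM with delta-IDR and 2270, 2257, 2183 and 2082 CPM with delta-CC-LCD. Every construct library lay far above every control library, and the full-length libraries lay above all those of either deletion form. By mean CPM per kilobase, Errfi1 stood at place 900 of 22046 protein-coding genes in the control group, and at places 37, 36 and 35 in the full-length, delta-IDR and delta-CC-LCD groups. Of the 14118 genes tested, 61 had a log2 change at least as large with full-length FRMD5, Errfi1 included.

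**Figure D1:**
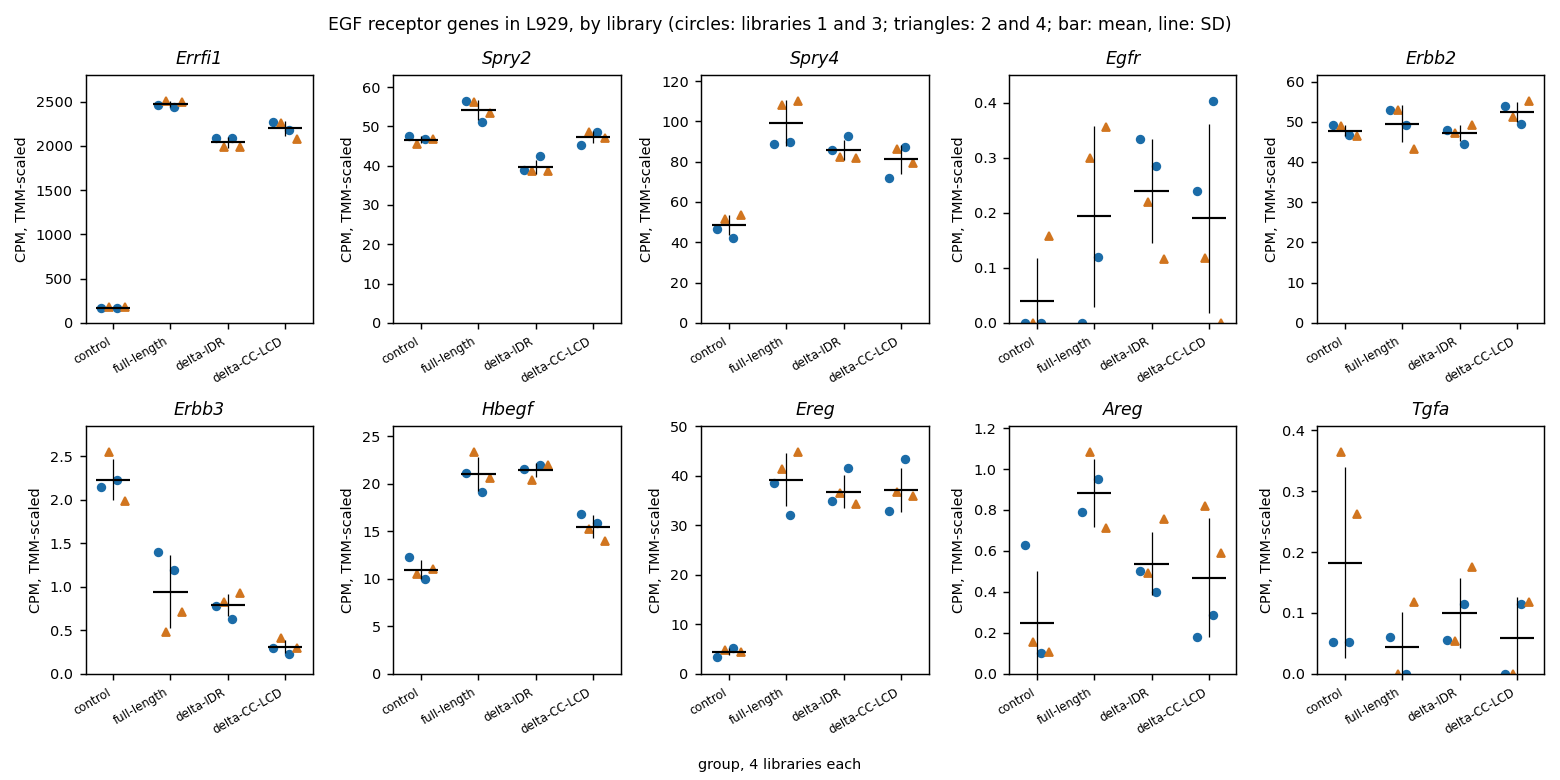
Level of each of the 10 genes in L929 (vertical axis, TMM-scaled CPM, a separate scale in each panel) in the 4 groups (horizontal axis), with 1 point per library, circles for libraries 1 and 3, triangles for libraries 2 and 4, a bar at the mean and a line of 1 SD either way. Errfi1 sits between 165 and 183 CPM in the control libraries and at or above 1983 CPM in every construct library, while Erbb2 overlaps between control and full-length libraries.

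RefSeq gives Errfi1 a pair of transcription starts on chromosome 4. The 100 bases before each are shown because its RNA had the largest log2 change of the 8 tested members over control in L929. Those of Areg are shown as the other member with the same match among the genes searched. The windows searched run from 250 bases before to 50 bases after a start in the GRCm38.p6 build. Of the 10 genes 6 had such a window, 7 windows in all, while Ereg, Hbegf, Spry4 and Erbb3 had none and were not searched. Capitals mark the cAMP response element TGACGTCA, which reads the same on both strands. The lines give the plus strand, 5′ to 3′, for Errfi1 at chr4:150853696-150853795 and chr4:150854970-150855069, and for Areg at chr5:91139499-91139598.
Errfi1, upstream start: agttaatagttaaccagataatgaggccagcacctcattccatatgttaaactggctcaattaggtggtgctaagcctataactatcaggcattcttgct
Errfi1, downstream start: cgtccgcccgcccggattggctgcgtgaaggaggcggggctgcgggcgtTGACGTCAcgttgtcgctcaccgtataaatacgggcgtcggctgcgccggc
Areg: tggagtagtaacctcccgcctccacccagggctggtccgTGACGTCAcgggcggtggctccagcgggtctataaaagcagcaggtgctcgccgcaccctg
The match begins 51 bases before the downstream start of Errfi1 and 61 bases before the start of Areg, and 1.79% of 32851 mouse windows of this length hold this motif. The glucocorticoid half-site AGAACA, searched on both strands, was in none of the 7 windows and in 19% of all windows. The glucocorticoid palindrome, that half-site and its reverse complement with 3 bases between them, was in none of the 7 and in 0.00913% of all. The AP-1 site TGAGTCA, searched on both strands, was in none of the 7 and in 5.2% of all. The motifs were picked with the changes known, and a match or its lack in these windows is a description of letters only.

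The differences in Errfi1 between constructs were small beside its rise over control, and they passed the test. The log2 change over control was 3.84 ± 0.04 with full-length FRMD5, a 14.3-fold rise, 3.56 ± 0.04 with delta-IDR and 3.67 ± 0.04 with delta-CC-LCD, with adjusted p of 2.6e-34, 1.7e-33 and 7.9e-34. Errfi1 was lower with delta-IDR than with the full-length form by a log2 change of -0.28 ± 0.04 (edgeR adjusted p = 7.2e-07). It was also lower with delta-CC-LCD than with the full-length form, at -0.17 ± 0.04 (edgeR adjusted p = 0.0011), where the adjusted p was 0.0746 on pair sums. The deletion forms differed from each other by -0.11 ± 0.04 (edgeR adjusted p = 0.028), but their libraries overlapped. This call was lost on pair sums (0.132), with total counts (0.145) and when delta-IDR replicate 2 or 4 or delta-CC-LCD replicate 1 or 2 was left out (0.0567 to 0.0777).

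Of the other feedback inhibitors, Spry4 rose with every construct, and Spry2 went in both directions. Spry4 measured 46.8, 51.7, 42.2 and 53.5 CPM in control libraries and 88.9, 108, 89.7 and 110 CPM with full-length FRMD5. With delta-IDR it measured 85.7, 82.5, 92.9 and 81.8 CPM, and with delta-CC-LCD 71.8, 86.2, 87.2 and 79.2 CPM. No construct library fell into the control range, while the construct groups ran close to each other. The log2 changes over control were 1.03 ± 0.09, 0.82 ± 0.09 and 0.74 ± 0.09, with adjusted p of 1.3e-08, 2.5e-07 and 9e-07 in edgeR's test. Spry4 was lower with delta-CC-LCD than with the full-length form, at -0.29 ± 0.09 (edgeR adjusted p = 0.024), a call lost on pair sums (0.133), with total counts in place of TMM (0.0546) and when full-length replicate 2 or 4 or delta-CC-LCD replicate 1 or 4 was left out (0.0782 to 0.0862). Between delta-IDR and the full-length form its change was -0.21 ± 0.09 (edgeR adjusted p = 0.083), with an approximate 95% interval of -0.38 to -0.04, and it was called by DESeq2 (0.0412), without the filter (0.0011), in a fit of only these groups (0.0428) and without full-length replicate 1 or 3 (0.0434 and 0.0467).

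Spry2, another Sprouty gene, stayed within a narrow range in L929. Its levels were 47.7, 45.5, 46.7 and 46.7 CPM in control, 56.4, 56.2, 51.0 and 53.3 CPM with full-length FRMD5, and 39.0, 38.7, 42.3 and 38.5 CPM with delta-IDR. With delta-CC-LCD they were 45.3, 48.6, 48.5 and 47.0 CPM. The full-length libraries were all above and the delta-IDR libraries all below control, and the delta-CC-LCD libraries overlapped control. The log2 changes over control were 0.22 ± 0.05 (edgeR adjusted p = 0.00068) for full-length and -0.23 ± 0.05 (edgeR adjusted p = 0.00031) for delta-IDR. The first of these was 0.05 with an adjusted p of 0.45 when libraries were scaled to total counts, a scaling that moved the median of all genes by up to 0.17. The difference between delta-IDR and full-length, -0.45 ± 0.05, had the smallest p for Spry2 (edgeR adjusted p = 1.3e-07). Spry2 was also lower with delta-CC-LCD than with full-length, at -0.20 ± 0.05 (edgeR adjusted p = 0.0082), which was lost on pair sums (0.0774) and without full-length replicate 1 (0.0541), and lower with delta-IDR than with delta-CC-LCD, at -0.26 ± 0.05 (edgeR adjusted p = 0.0006).

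Ereg, the ligand epiregulin, rose with each construct. It lies at chr5:91074622-91093646 on the plus strand, with Areg downstream of it at chr5:91139599-91148432. It measured 3.50, 4.79, 5.14 and 4.40 CPM in control, 38.6, 41.4, 32.1 and 44.8 CPM with full-length FRMD5, 34.9, 36.6, 41.5 and 34.3 CPM with delta-IDR, and 32.8, 36.8, 43.4 and 35.9 CPM with delta-CC-LCD. The construct groups lay together, well apart from control. The log2 changes were 3.13 ± 0.12, 3.04 ± 0.12 and 3.06 ± 0.12, with adjusted p of 1.4e-15, 2.6e-15 and 1.8e-15 in edgeR's test. Against the full-length form, delta-IDR differed by -0.09, with an approximate 95% interval of -0.28 to 0.10, and delta-CC-LCD by -0.07, with an interval of -0.27 to 0.12. An antisense gene, Gm19610, overlaps Ereg and took 295 counts in L929 beside 8103 for Ereg, and whether strand was used in the counting is not stated.

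Hbegf, heparin-binding EGF-like growth factor, rose with each construct, and less with delta-CC-LCD than with either of the others. Its levels were 12.3, 10.5, 9.97 and 11.0 CPM in control, 21.1, 23.3, 19.1 and 20.6 CPM with full-length FRMD5 and 21.5, 20.4, 22.03 and 21.98 CPM with delta-IDR. With delta-CC-LCD they were 16.9, 15.3, 15.8 and 14.02 CPM. That group lay between control and the other constructs without touching either. The log2 changes over control were 0.94 ± 0.09, 0.97 ± 0.09 and 0.50 ± 0.09, all called. Hbegf was lower with delta-CC-LCD than with full-length by -0.44 ± 0.08 (edgeR adjusted p = 0.00039), and higher with delta-IDR than with delta-CC-LCD by 0.47 ± 0.08 (edgeR adjusted p = 9e-05). Between delta-IDR and full-length the change was 0.03, with an approximate 95% interval of -0.13 to 0.19.

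Areg, amphiregulin, stayed near the lower limit of detection in L929, with 148 counts over 16 libraries. It measured 0.627, 0.156, 0.104 and 0.105 CPM in control and 0.790, 1.08, 0.952 and 0.712 CPM with full-length FRMD5. The log2 change was 1.81 ± 0.50 (edgeR adjusted p = 0.0021), and the highest control library came close to the lowest full-length library. Without control replicate 1 the change was 2.79 (edgeR adjusted p = 8.1e-05), and without any other single library of these 2 groups it ran from 1.55 to 1.89. With delta-IDR the change was 1.09 ± 0.53 (edgeR adjusted p = 0.068) and with delta-CC-LCD 0.91 ± 0.55 (edgeR adjusted p = 0.14). Without that control library these became 2.08 and 1.90, with adjusted p of 0.0031 and 0.0075. Tgfa, transforming growth factor alpha, reached at most 0.364 CPM in an L929 library and was not tested there.

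Among the receptors, Erbb3 fell and Erbb2 did not pass the test with any construct. Erbb3 measured 2.14, 2.55, 2.23 and 1.99 CPM in control, 1.40, 0.481, 1.19 and 0.712 CPM with full-length FRMD5, 0.782, 0.821, 0.629 and 0.933 CPM with delta-IDR, and 0.299, 0.411, 0.230 and 0.296 CPM with delta-CC-LCD. All construct libraries were below control, and the delta-CC-LCD libraries were below every other library. The log2 changes were -1.23 ± 0.28, -1.49 ± 0.29 and -2.82 ± 0.34, with adjusted p of 0.00038, 4.3e-05 and 1.5e-08 in edgeR's test, on 4 to 49 counts per library. Erbb3 was lower with delta-CC-LCD than with full-length by -1.59 ± 0.39 (edgeR adjusted p = 0.0033), and its difference of 1.34 between delta-IDR and delta-CC-LCD (edgeR adjusted p = 0.012) had an adjusted p of 0.0547 on pair sums.

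Erbb2 ranged from 43.2 to 55.1 CPM over the 16 L929 libraries, with log2 changes of 0.05, -0.02 and 0.13 over control. Its adjusted p for delta-CC-LCD was 0.052, and 5 of the other processing settings and 4 of the fits with a library left out called it. Among the other processing settings, its change went as low as -0.01 and its adjusted p as high as 0.869. Mien1, a protein-coding gene that overlaps Erbb2 on the opposite strand, took 3057 counts beside 13875 for Erbb2. Egfr was detected in L929 in 1 of 4 control libraries and in 3, 4 and 3 of 4 libraries of the construct groups, with at most 7 counts in a library.

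**Figure D2:**
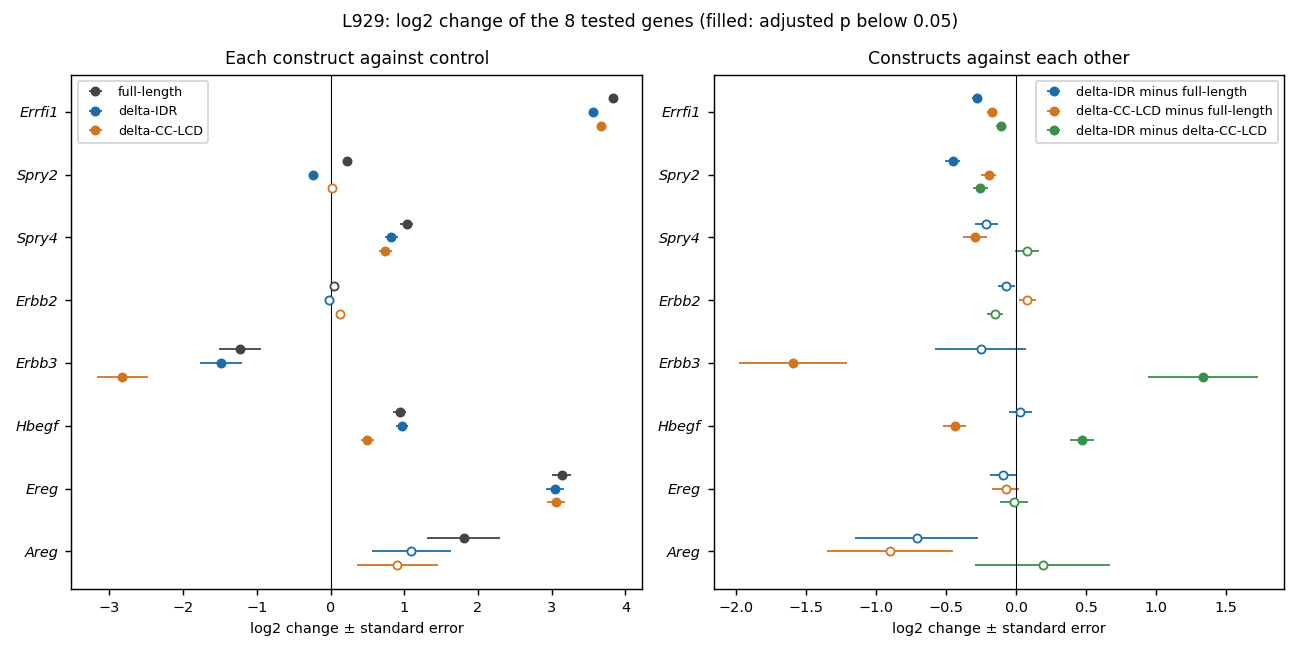
Log2 change ± standard error (horizontal axis) of the 8 tested genes (vertical axis) in L929, with each construct against control on the left and constructs against each other on the right. Filled points passed an adjusted p of 0.05. Against control, Errfi1 and Ereg lie at or above 3.04 for every construct, and Erbb3 lies below 0. Hbegf, Erbb3, Spry2 and Errfi1 have filled points for delta-CC-LCD against both other constructs. Of these genes, only Hbegf kept both calls on pair sums.

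With full-length FRMD5, 7 of the 8 tested members were called, 6 higher and 1 lower, where 59.1% of all tested genes were called, 30.3% higher and 28.7% lower. With delta-IDR 6 were called, 4 higher and 2 lower, against 64.4% of all genes, 32.8% higher and 31.6% lower. With delta-CC-LCD 5 were called, 4 higher and 1 lower, against 64.6%, 31.9% higher and 32.7% lower. The members' median log2 changes were 0.99, 0.90 and 0.62, beside -0.01, -0.01 and -0.02 over all genes. Between delta-IDR and full-length 2 members were called, both lower, against 25.3% of all genes called and 13.6% called lower. Between delta-CC-LCD and full-length 5 were called, all lower, against 19.3% called and 10.9% called lower. On pair sums the latter count was 2. Between the deletion forms 4 were called, 2 in each direction, against 22.3% of all genes, 11.6% higher and 10.7% lower, and 2 were called on pair sums. The 3 comparisons with control share its libraries.

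Other genes of the pathway, from lists chosen with earlier results of these data known, moved in both directions in L929. Of 15 further negative regulators 13 were tested, and with full-length FRMD5 4 rose and 6 fell, where 59.1% of all genes were called. Cblb, a ubiquitin ligase for activated receptors, rose by 1.94 ± 0.06 on the log2 scale and Cbl, its relative, by 0.48 ± 0.06, while Lrig1, a membrane protein that promotes receptor breakdown, fell by 1.27 on that scale and Spred3, a relative of the Sprouty genes, by 1.82. Of 6 genes for ligand shedding 5 were tested. Adam17, the main sheddase of Hbegf, Areg, Ereg and Tgfa, rose from 195 ± 1.89 CPM in control to 300.3 ± 7.59 with full-length FRMD5 (SD, n = 4), Adam9 and Rhbdf1 rose as well, and Rhbdf2, a carrier of ADAM17, fell by 0.57. Of the 3 other ligand or receptor genes tested, Btc (betacellulin) was lower with all constructs, with log2 changes of -0.75, -0.80 and -1.55.

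Downstream, 8 of 16 adaptor and kinase genes rose and 4 fell with full-length FRMD5, where 30.3% of all genes were called higher and 28.7% lower, and Ptpn11, the phosphatase SHP2, rose by 0.77. Of 11 genes whose RNA is known to follow ERK activity, 6 rose and 4 fell. Epha2 rose by 1.63 ± 0.04 and Ccnd1, cyclin D1, by 0.95 ± 0.03, and Dusp4, an ERK phosphatase, fell by 1.67. Egr1, an immediate early transcription factor, was lower with delta-CC-LCD than with the full-length form by -1.57 ± 0.14 (edgeR adjusted p = 6e-06), at 64.3 ± 11.5 against 191 ± 29.5 CPM (SD, n = 4). All 5 glucocorticoid reference genes rose with each construct, Sgk1 by 5.18, Tsc22d3 by 4.62 and Fkbp5 by 2.39 with the full-length form.

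Over the 16 L929 libraries, the genes whose log2 CPM ran closest to that of Errfi1 among 10500 protein-coding genes were Sgk1, Nedd9, Id1, Jade2 and Tob2, with Pearson r from 0.997 to 0.999. Among members, Ereg followed Errfi1 at 0.993, Spry4 at 0.934 and Hbegf at 0.859, while Erbb2 stood at 0.251 and Spry2 at 0.060. Spry4 ran closest to Stk40, Ier2, Zfp36l2, Tmem185b and Dusp5, from 0.962 to 0.979. These values describe libraries that share groups, and control and construct libraries of Errfi1, Ereg, Spry4 and Hbegf do not overlap.

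In the neurons DEX alone left the members without a call. With control peptide, 0 of 8 tested members were called for DEX by edgeR's test or by DESeq2, and 1 had an unadjusted p below 0.05, where 10.8% of all genes were called. Errfi1 measured 27.7, 28.6, 27.0 and 30.0 CPM without DEX and 28.7, 29.8, 31.6 and 31.8 CPM with it, and these ranges overlap. The log2 change was 0.11 ± 0.07 (edgeR adjusted p = 0.32), with an approximate 95% interval of -0.03 to 0.24. Hbegf, with the smallest p among members, had a log2 change of -0.24 ± 0.12 (edgeR adjusted p = 0.19). Of the 5 glucocorticoid reference genes 1 rose with DEX, the clock gene Per1, by 0.31 ± 0.08, and Nrg2, a neuregulin, fell by 0.68 and Rhbdf2 by 0.89 on the log2 scale.

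**Figure D3:**
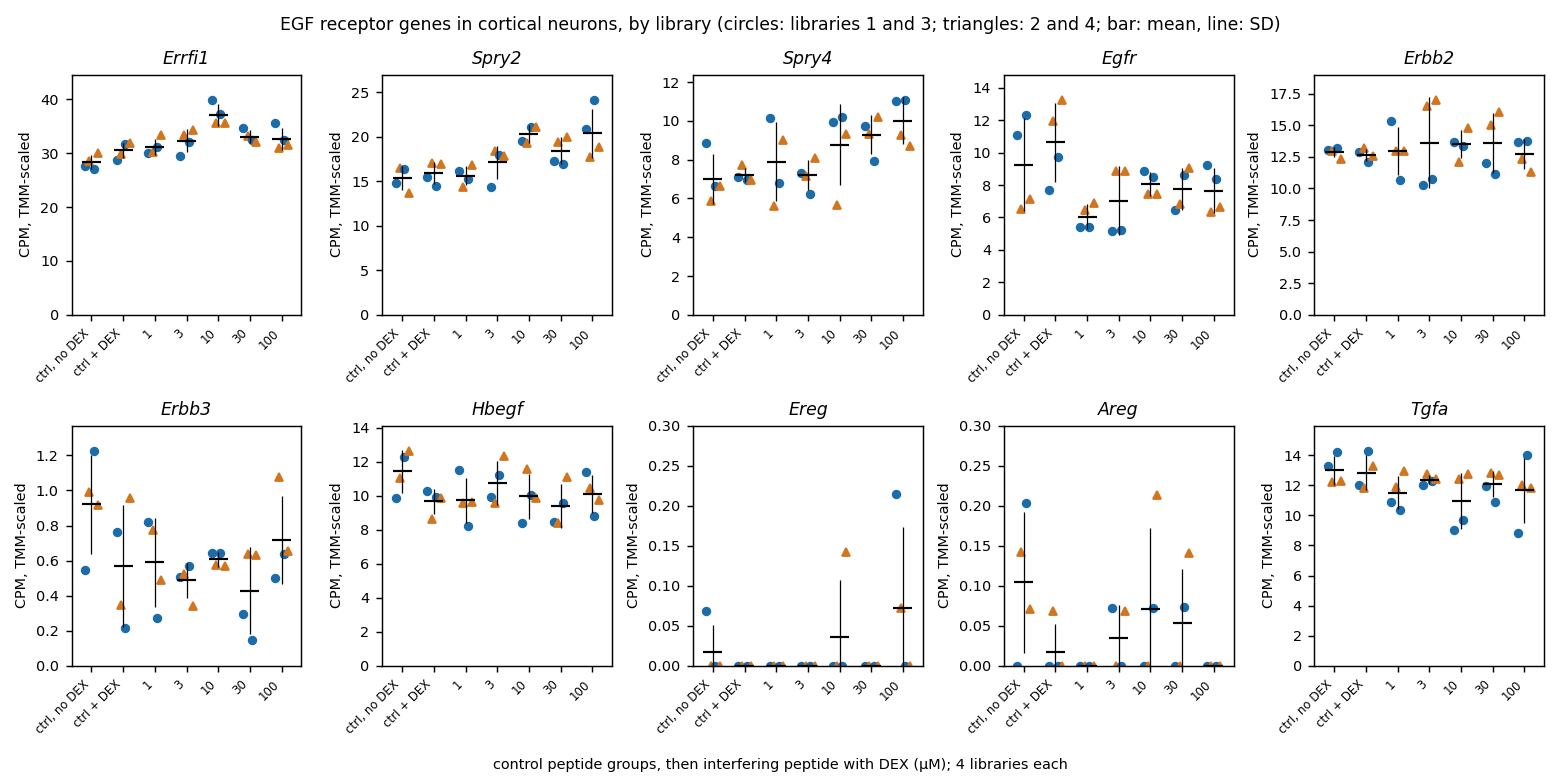
Level of each of the 10 genes in cortical neurons (vertical axis, TMM-scaled CPM, a separate scale in each panel) in the control peptide groups without and with DEX and at 5 doses of interfering peptide with DEX (horizontal axis), with points, bars and lines as in the plot of L929 levels. Spry2 reaches 20.4 CPM on average at 100 µM against 15.98 with control peptide, and Egfr splits into libraries 1 and 3 against 2 and 4 in several groups.

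Errfi1 was higher at 10 µM of the interfering peptide and was not called at the other doses. Its level was 30.0, 30.2, 31.1 and 33.4 CPM at 1 µM, 29.5, 33.4, 32.1 and 34.3 at 3 µM and 39.8, 35.5, 37.3 and 35.7 at 10 µM. It was 34.6, 33.2, 32.5 and 32.0 CPM at 30 µM and 35.6, 30.9, 32.4 and 31.6 at 100 µM. The 10 µM libraries lay above all control peptide libraries and above those of every other dose except 1 library at 100 µM. The log2 change at 10 µM was 0.28 ± 0.07 (edgeR adjusted p = 0.0069), and 0.177 was the adjusted p on pair sums. Over 20 libraries the slope on log10 dose was 0.03 ± 0.04 per 10-fold dose (edgeR adjusted p = 0.58).

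Spry2 was higher at 10 and 100 µM and Spry4 at 100 µM. Spry2 measured 15.4, 17.0, 14.5 and 17.0 CPM with control peptide and DEX, 16.2, 14.3, 15.3 and 16.8 at 1 µM, 14.3, 18.4, 17.9 and 17.8 at 3 µM, 19.6, 19.3, 21.2 and 21.1 at 10 µM, 17.3, 19.5, 17.0 and 20.02 at 30 µM, and 20.9, 17.8, 24.1 and 18.8 at 100 µM. The 10 and 100 µM libraries were all above the control peptide libraries. The log2 change was 0.34 ± 0.09 at 10 µM (edgeR adjusted p = 0.024), 0.21 ± 0.10 at 30 µM, where 1 library fell just below the highest control peptide library (edgeR adjusted p = 0.14), and 0.35 ± 0.09 at 100 µM (edgeR adjusted p = 0.0052), and the slope was 0.17 ± 0.05 per 10-fold dose (edgeR adjusted p = 0.0064). On pair sums the adjusted p at 10 µM, at 100 µM and for the slope were 0.241, 0.0546 and 0.0541. The call at 10 µM was lost with total counts (0.0548) and without replicate 1 or 3 of control peptide with DEX or replicate 3 or 4 at 10 µM (0.0565 to 0.0747), and that at 100 µM without replicate 3 at that dose (0.0531).

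Spry4 measured 7.13, 7.72, 6.95 and 6.95 CPM with control peptide and DEX, and 11.0, 9.27, 11.1 and 8.69 CPM at 100 µM, with no overlap. At 30 µM it was 9.74, 9.30, 7.91 and 10.2 CPM, also above control peptide, and at 10 µM 9.96, 5.66, 10.2 and 9.32 CPM, with 1 library below. The log2 change was 0.48 ± 0.16 at 100 µM (edgeR adjusted p = 0.021), 0.37 ± 0.16 at 30 µM (0.099) and 0.29 ± 0.16 at 10 µM (0.30), and the slope was 0.21 ± 0.07 (edgeR adjusted p = 0.035). The calls at 100 µM and for the slope had adjusted p of 0.0646 and 0.0753 on pair sums, and each was lost without replicate 1 or 3 at 100 µM. The slope was lost as well without replicate 2 or 3 at 1 µM (0.0902 and 0.0689) and with total counts (0.0638). The neuron markers summed to a mean of 3237 CPM at 100 µM against 2977 with control peptide and DEX, and the oligodendrocyte lineage markers to 74.6 against 86.6 CPM, with Olig2 lower by a log2 change of -0.40. The part of these shifts in the Sprouty changes was not tested.

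Egfr was lower at 1 µM, and its libraries split within groups. It measured 11.1, 6.52, 12.3 and 7.13 CPM without DEX, 7.69, 11.9, 9.70 and 13.2 CPM with control peptide and DEX, and 5.41, 6.47, 5.43 and 6.92 CPM at 1 µM. At 3 µM it measured 5.14, 8.86, 5.22 and 8.87 CPM. In 6 of the 7 neuron groups libraries 1 and 3 did not overlap with libraries 2 and 4, higher in 3 groups and lower in 3. This count was made after the values were seen, and for the other 9 genes it ran from 0 groups for Areg and Ereg, both with few counts, to 5 for Tgfa. With 2 libraries on each side such a separation often arises by chance, and its share over all genes was not counted. The log2 change at 1 µM was -0.81 ± 0.20 (edgeR adjusted p = 0.025), which was lost on pair sums (0.515) and when replicate 2 or 4 of control peptide with DEX or replicate 1, 2 or 3 at 1 µM was left out (0.0648 to 0.103).

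At 3, 10, 30 and 100 µM the Egfr change was -0.59, -0.40, -0.46 and -0.47, with adjusted p of 0.082, 0.26, 0.12 and 0.083. Without control peptide and DEX replicate 1, the lowest library of that group, the changes at 3, 30 and 100 µM passed edgeR's test, at -0.73, -0.59 and -0.60. Leaving out the lowest control library enlarges a fall. With other single libraries left out, the edgeR adjusted p at these doses reached 0.263, 0.320 and 0.256. These 5 comparisons share the same control libraries. In cortex EGFR is known from progenitors and glia. Astrocyte markers summed to 311 CPM at 1 µM against 306 with control peptide and DEX and progenitor markers to 1239 against 1160. Slc1a3, an astrocyte transporter, had a called log2 change of -0.20, opposite in direction to the astrocyte sum. Nes, a progenitor filament gene, had a called change of 0.20. Vascular and meningeal markers summed to 103 CPM at 1 µM against 115. Oligodendrocyte lineage markers summed to 96.7, 83.5, 101 and 90.4 CPM in the libraries without DEX and to 75.1, 97.4, 75.2 and 98.6 CPM with control peptide and DEX. They were higher in the same pair of libraries as Egfr in each of these groups. Astrocyte markers split the same way, at 321, 300, 339 and 296 CPM without DEX and 283, 313, 301 and 327 CPM with it. So did the vascular and meningeal, the microglia and, at low CPM, the epithelial markers. The neuron, fibroblast and progenitor markers did not split this way in both groups. At 1 µM the oligodendrocyte lineage markers were 84.5, 81.9, 88.1 and 81.2 CPM, higher in the pair where Egfr was lower. Astrocyte markers, at 312, 307, 320 and 305 CPM, and vascular and meningeal markers were higher in that pair as well, and microglia markers were lower there. At 3 µM, where Egfr was lower in libraries 1 and 3, astrocyte markers were higher in them, at 303, 297, 312 and 291 CPM. Oligodendrocyte lineage markers overlapped at that dose, at 75.7, 81.6, 84.1 and 82.8 CPM. Marker splits at 10, 30 and 100 µM are not set beside Egfr here. The part of these markers in the Egfr values was not tested, and in such mixed cultures fewer cells of a type and less RNA per cell cannot be told apart.

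The other receptors and the ligands were not called at any dose. Erbb2 ranged from 10.3 to 17.0 CPM over the 28 neuron libraries, with log2 changes from 0.01 to 0.11 over the doses, and Mien1 took 3689 counts beside 5263 for Erbb2. Erbb3 stayed between 2 and 18 counts per library. Hbegf ranged from 8.25 to 12.6 CPM and Tgfa from 8.82 to 14.3 CPM, with changes from -0.04 to 0.15 and from -0.23 to -0.05 over the doses.

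Of the 8 tested members 1 was called at 1 µM, lower, where 2.29% of all genes were called and 0.891% were lower. At 3 µM 0 were called, against 5.25%, and at 30 µM 0, against 15.9%. At 10 µM 2 were called, both higher, against 5.38% of all genes and 3.17% higher, and at 100 µM 2, both higher, against 23.4% and 11.9% higher. At 3 µM 1 member had an unadjusted p below 0.05 in edgeR's test and DESeq2 called 1, and at 30 µM 3 had one and DESeq2 called 0. For the slope 2 of 7 tested members were called, both higher, against 19.4% of all genes and 9.46% higher. The members' medians over the doses ran from 0.02 to 0.09, and those of all genes from -0.01 to 0.01. On pair sums, the counts at 1, 10 and 100 µM and for the slope were 0. Control and interfering peptide were matched in concentration at 100 µM alone. With 100 µM interfering peptide and DEX against control peptide without DEX, 3 members were called, all higher, against 35.1% of all genes and 17.4% higher, namely Errfi1 (0.20 ± 0.07), Spry2 (0.41 ± 0.10) and Spry4 (0.52 ± 0.16), and the Errfi1 call was lost on pair sums (0.0653), with total counts (0.194) and without replicate 3 of control peptide without DEX (0.0552) or replicate 1 at 100 µM (0.0827).

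**Figure D4:**
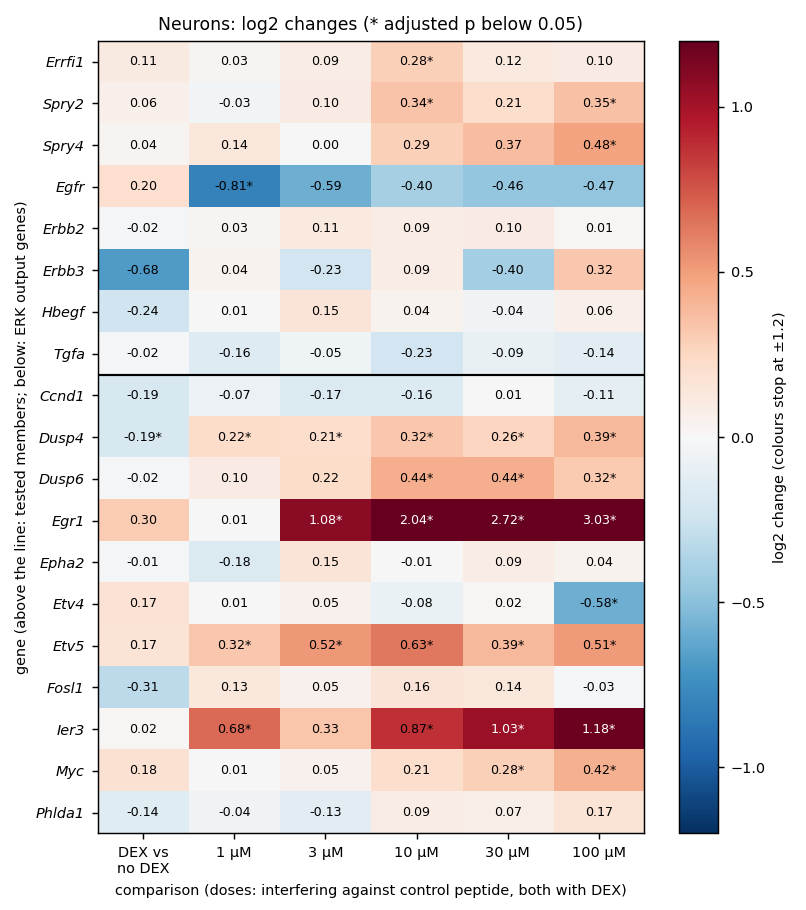
Log2 change in neurons for the 8 tested members (above the line) and 11 ERK output genes (below it) in 6 comparisons, DEX against no DEX and 5 doses of interfering against control peptide, both with DEX. Colour and number give the change, colours stop at 1.2 either way, and an asterisk marks an adjusted p below 0.05. Egr1 runs from 0.01 at 1 µM to 3.03 at 100 µM, while the members stay between -0.81 and 0.48 at these doses.

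Several genes downstream of the receptors had larger changes in the neurons. Of the 11 ERK output genes, 3, 3, 5, 6 and 6 rose at 1, 3, 10, 30 and 100 µM, and 1 fell at 100 µM, where 2.29%, 5.25%, 5.38%, 15.9% and 23.4% of all genes were called in either direction. Egr1 had means of 28.6 ± 1.85 CPM with control peptide and DEX and 234 ± 60.8 CPM at 100 µM (SD, n = 4), a log2 change of 3.03 ± 0.15 (edgeR adjusted p = 1.4e-12). Ier3, an early response gene, rose by 1.18, Etv5, an ETS factor induced by receptor tyrosine kinases, by 0.51 and Dusp4 by 0.39 at that dose. The median log2 change of the 11 genes went from 0.01 at 1 µM to 0.32 at 100 µM.

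At 100 µM, where 23.4% of all genes were called and 11.9% were higher, 6 of the 15 other negative regulators rose, among them Nf1, a RAS GTPase activator, by 0.26 and Cbl by 0.21. Of the 16 adaptor and kinase genes 7 rose and 1 fell at that dose, and Sos1, a RAS exchange factor, rose by 0.22. Of the 7 other ligand and receptor genes tested, Erbb4, a neuregulin receptor, rose by 0.37 and 0.31 and Nrg1, its ligand, by 0.24 and 0.27 at 30 and 100 µM. Rhbdf2 rose by 1.04, 1.00 and 0.71 at 10, 30 and 100 µM from a mean of 1.60 CPM, and Adam10, a sheddase, by 0.24 at 30 and 100 µM.

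Over the 28 neuron libraries the genes closest to Errfi1 among 12022 were Fosl2, Per1, Ptgfrn, Usp19 and Vim, with Pearson r from 0.780 to 0.863. Those closest to Spry4 were Gprc5b, Limd1, Txnrd1, Ppp1r15a and Psmd8, from 0.752 to 0.791. Among members, Spry2 had r of 0.654 with Errfi1 and 0.603 with Spry4, Tgfa had -0.491 with Errfi1, and Egfr had -0.016 with Errfi1. The same libraries and groups underlie all of these values, which describe likeness only. None of the 5 genes closest to Errfi1 in neurons was among the 5 closest to it in L929.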

How the data were processed

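The deposited values are raw counts of reads per gene, in whole numbers, for 54532 genes in an L929 and a neuron table. Per the labels' protocols, poly-T-selected RNA was fragmented and copied with random hexamers. Per the submitters' processing notes, reads were aligned with HISAT2 2.2.1 and the build was mm10. Neither the counter nor its use of strand is given in the sources used here. Columns were matched to samples by library name, where the delta-IDR columns read IDRD and the labels DIDR.

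Each table was fitted alone with edgeR 4.0.16 (R 4.3.3), using filterByExpr, TMM scaling, a robust quasi-likelihood fit of all its groups and no replicate block. This tested 14118 genes in L929, 17837 in neurons and 17349 for the slope on log10 dose over 20 libraries, with common biological coefficients of variation of 0.0665 and 0.0661. Adjusted p-values cover all genes tested in a table. The approximate intervals come from the standard error. The steps were tested on simulated counts. Likeness is Pearson r of log2 CPM (prior count 2) among protein-coding genes that average 2 CPM or more. Gene spans are those of the deposited tables, and promoter coordinates and sequences are RefSeq's for GRCm38.p6.

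The 10 members are named always, and from each other pathway list at most 4 called genes with the smallest p per comparison, some of which are not reported here. Members, lists and motifs were chosen with earlier results of these data known. Alternatives were DESeq2 1.42.0, RLE size factors, total counts, no low-count filter, only the compared groups, a replicate block, pair sums of libraries 1 and 3 and of 2 and 4, and each library left out. A count of 0 allows up to 3 counts, for counting error only.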

Additional observations from a re-analysis of the deposited data

Results flagged for a closer look

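In 7 of 104 groups of 4 libraries, a single library of a member stood far from the other 3, where chance flags about 1 group in 20 of normally spread values. That rate does not hold at low counts, since any group with 0 in the other 3 libraries is flagged. In the L929 control group, Egfr was at 0.157 CPM in replicate 4 and at 0 in the others, and Areg was at 0.627 CPM in replicate 1 (12 counts) against 0.104 to 0.156. Spry2 reached 42.3 CPM in delta-IDR replicate 3 against 38.5 to 39.0. In neurons, Spry2 was at 14.3 CPM in replicate 1 at 3 µM against 17.8 to 18.4. The other 3 rest on few counts, with Areg at 0.0689 CPM in replicate 2 of control peptide with DEX, Ereg at 0.0685 CPM in replicate 1 of control peptide without DEX, and Ereg at 0.142 CPM in replicate 4 at 10 µM, and 0 in the other libraries of those groups.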

How the results depend on the processing

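The rises of Errfi1, Spry4, Ereg and Hbegf and the fall of Erbb3 over L929 control were called under every alternative run. Over all member results, 717 of 769 values under alternatives other than leaving out a library, and 868 of 972 with a library left out, kept their direction and side of the threshold. A further 16 and 64 values were labelled moved, without a change of call. Uncalled values also changed sign, such as that of Erbb2 with full-length FRMD5 against control, from 0.05 to as low as -0.12. A single value reversed and changed its call, that of Spry2 with delta-CC-LCD against control. It went from 0.02 to -0.12 (edgeR adjusted p = 0.0435) with total counts. This scaling moved the median of all genes by up to 0.17, and the cause was not tested. On pair sums, which leave 2 libraries per group, the members called fell to 2 for delta-CC-LCD against full-length and for delta-IDR against delta-CC-LCD, and to 0 at 1, 10 and 100 µM and for the slope. The libraries of delta-CC-LCD did not themselves split into these pairs. All genes called fell to 1501 and 2084 for those L929 comparisons, 330 for DEX, 89, 101, 108, 700 and 1788 at 1, 3, 10, 30 and 100 µM, and 1515 for the slope. With only the compared groups in the fit, 370 genes were called at 3 µM and 2 members at 30 µM. DESeq2 and no filter each called 1 member at 3 µM, no filter 1 at 30 µM, and total counts 1 at 10 µM and 1 for the slope. With a library left out, the members called ranged from 0 to 1 at 1, 3 and 30 µM, 1 to 2 at 10 µM, 0 to 3 at 100 µM and 1 to 2 for the slope. Same-numbered libraries showed no strong shared deviation (correlations from -0.10 to 0.09), which cannot exclude that the numbers pair samples. A replicate block gave the same counts of members called, from 0 for DEX to 7 for full-length against control. Depth limits Areg, Erbb3, Tgfa and Egfr in L929 and Erbb3, Areg and Ereg in neurons.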
